A study of Mus musculus with 5 samples.

Results

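Neurotrophin-3 (Ntf3) and the receptors TrkB (Ntrk2) and TrkC (Ntrk3) were followed through single cells of the developing mouse cerebellum. The set consists of 3 genes of the 15971 in the expression table, read in all 6987 cells. It was set by gene name, with source and receptor-bearing cells split by detection of Atoh1, Tlx3, Eomes, Lmx1a and Mapt. A cell with 1 or more UMIs (unique molecular identifiers, which count captured molecules) of a gene is written as positive (Atoh1+), and other cells as negative. These 5 splits belong to the way the set was chosen, so the members' levels across them are given as a description with no test. Splits by Sox2, Mki67, Ntf3 and Ntrk2 and the comparison of ages were tested.

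The series addresses the rhombic lip origin of Group 3 and Group 4 medulloblastoma. It holds 5 libraries: 1 labelled EomesCreER at e16 (embryonic day 16), 2 labelled RL (rhombic lip, the dorsal germinal zone of the cerebellum) at e14, and 2 labelled RL at e13. EomesCreER names a mouse line that expresses Cre under Eomes control, and the sources used here do not state how cells of that library were selected. The titles of the RL libraries also carry the letters UT, which are not explained. The sources also do not state the strain or genotype of the RL animals, any treatment in words, or whether replicates came from separate animals, so that each p-value refers to the spread among these libraries, which may be technical. The title of RL e13 replicate 2 gives e13 and its age tag e14, and the title was followed.

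Neurotrophins are secreted growth factors that support the survival, maturation and connections of neurons. Neurotrophin-3 acts mainly through TrkC and BDNF through TrkB, and both can bind the shared receptor p75 (Ngfr). In the cerebellum both receptors are known for their part in granule cell and Purkinje cell development, and truncated forms of TrkB and TrkC lack the kinase domain. Atoh1 marks rhombic lip derivatives and granule cell progenitors, Eomes and Lmx1a are transcription factors of rhombic lip lineages, Tlx3 is a homeobox factor of glutamatergic neurons, and Mapt encodes the axonal protein tau.

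Ntf3 lies on mouse chromosome 6 (126101412 to 126166910, minus strand), Ntrk2 on chromosome 13 (58806569 to 59133970, plus strand) and Ntrk3 on chromosome 7 (78175959 to 78738012, minus strand), in GRCm38 with GENCODE M21. The kits read the 3′ ends of transcripts. Ntf3 has 1 annotated 3′ end among its 3 protein-coding transcripts, while Ntrk2 has 6 among 7 and Ntrk3 has 6 among 6. The table gives 1 value per gene, so full-length and truncated receptors cannot be told apart here. Promoters of 2 of the 3 members were matched in the RefSeq table (GRCm38.p6). The 250 bases before a start are shown because Ntf3 was mainly in Tlx3+ cells and Ntrk2 in Mapt+ cells, though not in every library or class. Capitals mark the E-box letters CANNTG, the kind of motif that ATOH1 and other proneural factors bind. The motif reads the same on both strands and overlapping matches were counted.
Ntf3 promoter at chr6:126164961-126165210, minus strand: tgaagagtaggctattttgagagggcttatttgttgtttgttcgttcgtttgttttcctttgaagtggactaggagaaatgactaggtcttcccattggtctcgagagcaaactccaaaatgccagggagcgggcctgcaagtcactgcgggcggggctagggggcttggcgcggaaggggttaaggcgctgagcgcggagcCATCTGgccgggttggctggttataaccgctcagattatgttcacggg
Ntrk2 promoter at chr13:58806319-58806568, plus strand: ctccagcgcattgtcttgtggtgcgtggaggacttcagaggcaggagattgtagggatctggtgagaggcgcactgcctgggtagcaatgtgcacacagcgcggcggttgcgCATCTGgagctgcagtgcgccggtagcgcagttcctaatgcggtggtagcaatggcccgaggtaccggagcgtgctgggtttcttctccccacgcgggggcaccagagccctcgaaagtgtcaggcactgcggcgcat
The Ntf3 window lies before the first exon of transcript Ntf3-203, inside an intron of the longer transcripts, and holds 1 match, CATCTG, that begins 48 bases before the start. The Ntrk2 window also holds 1 match, CATCTG, that begins 138 bases before the start. A second Ntf3 window, before a RefSeq start that lies inside the annotated transcript Ntf3-201, held 2 matches, CACGTG and CAAGTG. It overlaps an annotated untranslated region by 166 bases and is not printed. Of 32851 promoter windows of the same length, 66.2% held 1 or more matches and 31.8% held 2 or more, so that a match is common and is given as a description only.

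The libraries held 2676 cells (EomesCreER e16), 1046 and 741 cells (RL e14 replicates 1 and 2), and 706 and 1818 cells (RL e13 replicates 1 and 2), with medians of 10346 to 19970 UMIs per cell. Only 6 cell barcodes occurred in more than 1 library. RL e13 replicate 1 stood apart, with 93.3% Sox2+ cells and 3 Tlx3+ cells, while 94.5% of cells in the e16 library were Mapt+ and 0.859% were Sox2+. As a check of the tissue, the summed level of 8 granule progenitor markers was 919 CPM or more in every class profile, and the sums of microglial, pericyte and meningeal markers reached at most 12.2, 11.5 and 7.22 CPM. Those of endothelial, oligodendrocyte lineage, sensory neuron and red blood cell markers reached 40.1, 64.5, 69.0 and 80.9 CPM. For GABAergic, roof plate and astroglial markers the sums reached 182, 477 and 527 CPM. The oligodendrocyte lineage and sensory neuron lists both named Sox10, which was read as Sox21 through a gene synonym. Their sums therefore hold Sox21 in place of Sox10. The GABAergic list named Skor2 more than once, so its sum may count that gene repeatedly. The sums of these lists are therefore only a rough guide to the cell types named. The level of a gene is its average over cells in CPM, with the UMIs of each cell scaled to 1000000. Because 1 tag is read per transcript, these levels do not grow with transcript length, but capture can differ between genes.

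Ntf3 was carried mainly by Tlx3+ cells in the e16 and RL e14 libraries. Its mean level over all cells was 29.8 CPM in the e16 library, 42.0 and 68.6 in the RL e14 replicates, and 0.0583 and 5.57 in the RL e13 replicates. It was detected in 306, 215, 205, 1 and 84 cells of these libraries, with 3186 UMIs in total. The single UMI in RL e13 replicate 1 leaves that library without a source population that could be described. Tlx3+ cells made up 11% of the e16 library and held 88% of its Ntf3 UMIs. They made up 29.6% and 36.8% of the RL e14 replicates and held 93.7% and 94.1% of the Ntf3 UMIs, and in RL e13 replicate 2 they made up 9.52% of cells and held 45.5%. The share of all UMIs in Tlx3+ cells was 15.5%, 30.1%, 39.9% and 10.4% in these libraries and was smaller than the share of Ntf3 UMIs in each of the 4.

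In Tlx3+ cells Ntf3 stood at 224 CPM in the e16 library, 132 and 175 in the RL e14 replicates and 24.4 in RL e13 replicate 2. In Tlx3- cells of the same libraries it stood at 5.72, 4.15, 6.55 and 3.59 CPM. The groups did not overlap, and RL e13 replicate 2 had both the lowest positive level and the smallest difference. The log2 difference of CPM + 5 was 3.52 ± 1.18 (SD, n = 4). Across all genes, 3.23% were called between these groups with limma, a share given as background only because the rule used this split.

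The level also followed the number of Tlx3 UMIs in a cell. With 0, 1, 2 and 3 or more Tlx3 UMIs, Ntf3 stood at 4.15, 29.2, 71.2 and 160 CPM in RL e14 replicate 1. The same bins gave 6.55, 27.5, 44.4 and 223 CPM in RL e14 replicate 2, and 3.59, 13, 19.6 and 40.4 CPM in RL e13 replicate 2. All 3 libraries rose from bin to bin, and in the e16 library the levels were 5.72, 40.1 and 268 CPM for 0, 1 and 3 or more UMIs. Cells at the detection threshold, with 1 Tlx3 UMI, were thus nearer to Tlx3- cells than to cells with many Tlx3 UMIs.

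**Figure D1:**
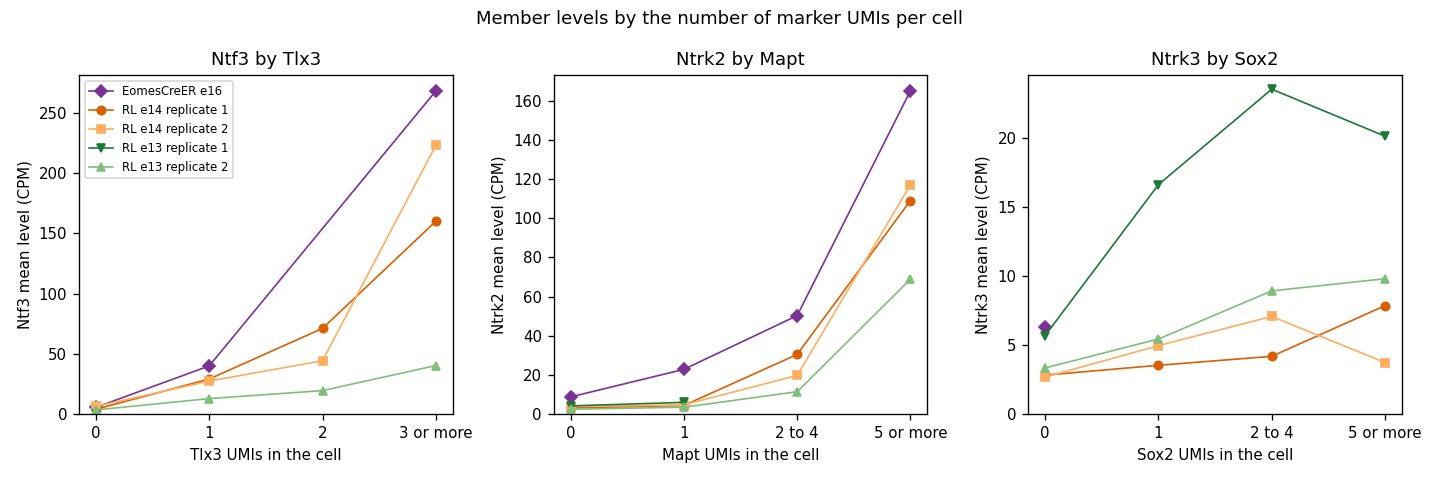
Levels of the members (CPM) in cells binned by the number of UMIs of a marker gene, with 1 line per library. Ntf3 rose with Tlx3 UMIs in each library plotted (4.15 to 160 CPM in RL e14 replicate 1), and Ntrk2 rose with Mapt UMIs (3.25 to 109 CPM in the same library).

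Exclusive classes placed Ntf3 in cells with and without Mapt. In Atoh1+ Tlx3+ Eomes- cells it stood at 127 ± 80.6 CPM without Mapt and at 118 ± 54.9 CPM with Mapt (SD, n = 3 libraries). The 2 ranges, 39.5 to 198 and 54.5 to 150 CPM, overlapped. The highest level of any class profile, 241 CPM, was in the 36 Tlx3+ Atoh1- Eomes- Mapt+ cells of the e16 library, the only library with 20 or more such cells. Next came Eomes+ Lmx1a- cells, at 57.9 ± 39.5 CPM without Mapt and 49.7 ± 34.6 CPM with it (n = 4), whose ranges overlapped those of the first pair. Adding Lmx1a went with low Ntf3: Eomes+ Lmx1a+ Mapt+ cells had 8.56 ± 8.45 CPM (n = 3). Atoh1+ Tlx3- Eomes- cells without Mapt had 5.83 ± 4.95 CPM (n = 4), within the spread of that class. The Eomes+ classes were not split by Tlx3. Among all cells, those with Lmx1a had less Tlx3 than those without (log2 difference -1.97, lower in 5 of 5 libraries). The part of Tlx3 in the Ntf3 levels of the Eomes+ classes was not tested.

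Cells with none of the 5 markers served as the background. In 126 such cells of RL e14 replicate 1 no Ntf3 UMI was found among 1838723 UMIs, which allows a level of up to 1.63 CPM from 3 counts. In RL e13 replicate 2, 0.815% of 368 such cells held Ntf3 (95% Wilson interval 0.278 to 2.37%, median 15101 UMIs per cell). The shares over all cells were 11.4 to 27.7% in the e16 and RL e14 libraries and 4.62% in RL e13 replicate 2. Intervals and limits on counts cover counting error only.

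**Figure D2:**
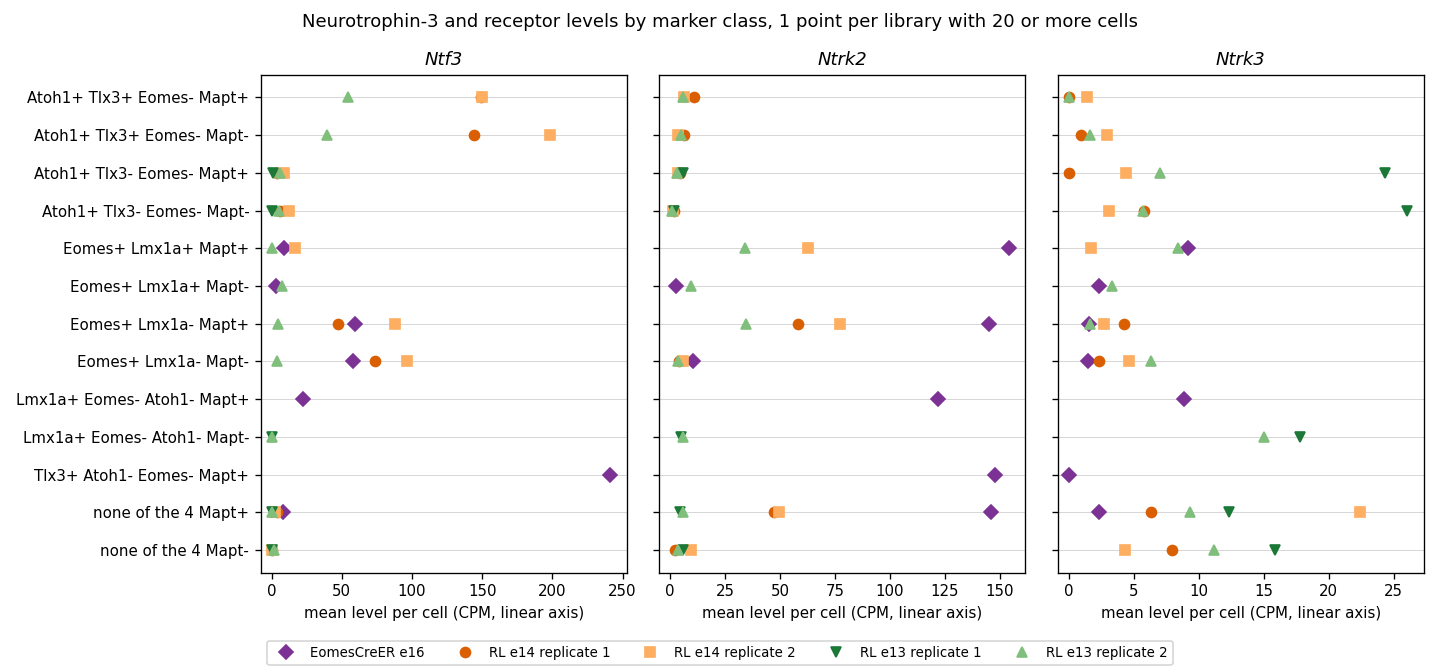
Mean levels per cell (CPM, linear axis) of Ntf3, Ntrk2 and Ntrk3 in 13 classes of cells defined by marker detection, with 1 point per library that has 20 or more cells in the class. Ntf3 was high in Tlx3+ classes (up to 241 CPM), and Ntrk3 reached 26.0 CPM in RL e13 replicate 1. Ntrk2 was high in several Mapt+ classes (up to 154 CPM). Its means were 7.82 and 4.3 CPM in Atoh1+ Eomes- Mapt+ cells with and without Tlx3.

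Within Atoh1+ cells, Ntf3 was split by Tlx3. Atoh1+ Tlx3+ cells had 194 CPM in the e16 library (51 cells), 132 and 183 CPM in the RL e14 replicates (255 and 207 cells) and 26.1 CPM in RL e13 replicate 2 (153 cells). Atoh1+ Tlx3- cells of these libraries had 3.40, 5.19, 10.6 and 4.82 CPM, and those of RL e13 replicate 1 had 0.129 CPM. Atoh1 alone separated Ntf3 far less, with 48.3 against 26.1 CPM and 83.4 against 39.8 CPM in Atoh1+ and Atoh1- cells of the RL e14 replicates. With cells thinned to 5000 UMIs the mean log2 difference at the Atoh1 split was -0.03 instead of 0.61. The difference by Atoh1 detection thus depended on the depth at which Atoh1 was read.

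The e14 and e13 libraries were compared in Atoh1+ cells. Ntf3 stood at 48.3 and 83.4 CPM in the RL e14 replicates and at 0.128 and 7.53 CPM in the RL e13 replicates. Of 8286 genes, 0% were called between the ages with limma (0 genes, with 1286 at an unadjusted p under 0.05). The log2 difference of Ntf3 was 3.10 ± 0.51 (SE, n = 2 against 2), with a limma adjusted p of 0.31. Without RL e13 replicate 1 it was 2.45 (limma adjusted p = 0.031, 19 genes called), and without RL e13 replicate 2 it was 3.74 (limma adjusted p = 0.00018, 1746 genes called). Moving RL e13 replicate 2 to e14, as its tag has it, the difference was 2.92 (limma adjusted p = 0.13, 620 genes called). Each of these 3 settings leaves 1 library at e13, which is assumed to vary like those of the e14 group.

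The share of Tlx3+ cells differed between these libraries as well, at 29.6% and 36.8% of all cells at e14 against 0.425% and 9.52% at e13. In Atoh1+ cells without Tlx3 the log2 difference of Ntf3 was 0.83, at a level under the filter for testing. Age, library and cell composition cannot be told apart with these libraries. Ntrk2 in Atoh1+ cells was 5.93 and 6.72 CPM at e14 against 3.00 and 4.43 at e13, and Ntrk3 was 3.32 and 2.85 against 24.6 and 5.33. Both receptors were under the filter of a mean of 10 CPM in this comparison and were not tested. Without RL e13 replicate 2, Ntrk3 fell by 1.87 on the log2 scale, a value that rests on RL e13 replicate 1 alone. It passed the filter there only through the high level of that library.

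**Figure D3:**
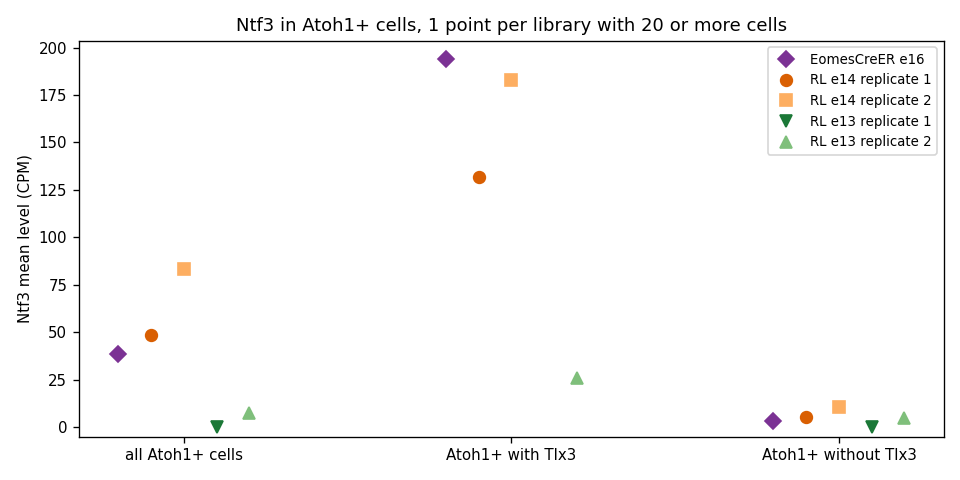
Ntf3 level (CPM) in all Atoh1+ cells, in those with Tlx3 and in those without, with 1 point per library of 20 or more cells. The 3 e16 and e14 libraries sit between 132 and 194 CPM in Atoh1+ Tlx3+ cells, RL e13 replicate 2 at 26.1 CPM, and Atoh1+ Tlx3- cells at 10.6 CPM or lower.

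Ntrk2 was found mainly in Mapt+ cells in 4 of the 5 libraries. Its level over all cells was 142 CPM in the e16 library, 12.3 and 21.2 CPM in the RL e14 replicates, and 4.49 and 7.07 CPM in the RL e13 replicates, with 4980 UMIs in 2168 cells. Only the e16 library, 94.5% of whose cells were Mapt+, stood above 100 CPM. In Mapt+ cells Ntrk2 stood at 150, 33.4, 49.3, 5.87 and 17.5 CPM, in the same order of libraries. In Mapt- cells it stood at 8.84, 3.25, 3.92, 4.27 and 2.56 CPM, lower in 5 of 5 libraries and least so in RL e13 replicate 1.

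The number of Mapt UMIs ordered Ntrk2 in the 4 libraries with all bins filled. With 0, 1, 2 to 4 and 5 or more Mapt UMIs it stood at 8.84, 22.9, 50.3 and 165 CPM in the e16 library. The bins gave 3.25, 4.46, 30.5 and 109 CPM in RL e14 replicate 1, 3.92, 4.82, 19.8 and 117 CPM in RL e14 replicate 2, and 2.56, 3.60, 11.5 and 68.9 CPM in RL e13 replicate 2. Cells with 5 or more Mapt UMIs thus differed less between libraries (68.9 to 165 CPM) than Mapt+ cells of the same 4 libraries did (17.5 to 150 CPM). Mapt+ cells held 99.5% of Ntrk2 UMIs in the e16 library, and 81.0% and 89.6% in the RL e14 replicates, where they made up 29.8% and 38.2% of cells. In RL e13 replicate 2 they held 77.2% (30.3% of cells), but in RL e13 replicate 1 only 10 of 58 UMIs (17.2%, 13.5% of cells).

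Among classes, Ntrk2 was high in several kinds of Mapt+ cells, and mostly in the e16 library. Eomes+ Lmx1a+ Mapt+ cells had 83.6 ± 62.6 CPM (34.2 to 154, n = 3) and Eomes+ Lmx1a- Mapt+ cells 78.7 ± 47.5 CPM (34.4 to 145, n = 4). In the e16 library alone, the Mapt+ classes of 20 or more cells spanned 122 to 154 CPM. The 2 ranges over libraries overlapped almost fully, and Mapt+ cells with none of the other markers spanned 4.34 to 146 CPM (n = 5). Mapt- classes had means of 1.5 to 6.03 CPM, and Atoh1+ Tlx3+ Eomes- Mapt+ cells had 7.82 ± 2.67 CPM (n = 3). In this last class, high in Ntf3, the receptor was thus close to its level in Mapt- classes, while the 36 Tlx3+ Atoh1- Eomes- Mapt+ cells of the e16 library had 148 CPM of Ntrk2 beside 241 CPM of Ntf3. Cells with none of the 5 markers held Ntrk2 in 3.17 to 11.6% of cells in the 4 RL libraries (median 13544 to 17178 UMIs per cell), a low but not absent background.

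Ntrk3 was the sparsest member, with 789 UMIs in 599 cells, and followed another pattern. Over all cells it stood at 6.38 CPM in the e16 library, 4.17 and 4.08 in the RL e14 replicates, and 19.7 and 6.86 in the RL e13 replicates. The highest library was RL e13 replicate 1, in which 93.3% of cells were Sox2+. In Tlx3+ cells Ntrk3 stood at 2.37, 1.46, 2.13 and 1.5 CPM in the e16 library, the RL e14 replicates and RL e13 replicate 2, against 6.88, 5.31, 5.22 and 7.42 CPM in Tlx3- cells. Tlx3+ cells thus had less Ntrk3 in 4 of 4 libraries, from 12, 7, 11 and 5 Ntrk3 UMIs in Tlx3+ cells.

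Lmx1a+ cells had more Ntrk3 than Lmx1a- cells in 5 of 5 libraries. The levels were 9 against 1.74 CPM in the e16 library, 6.13 against 3.99 and 6.53 against 3.86 CPM in the RL e14 replicates, and 24.2 against 18.3 and 12.2 against 6.35 CPM in the RL e13 replicates. Pairs were ordered within each library, although the ranges over libraries overlapped. Lmx1a+ Eomes- Atoh1- Mapt- cells had 16.4 ± 1.98 CPM (15 and 17.8, n = 2), and no Ntf3 UMI was found in them. The summed level of 5 roof plate and choroid plexus markers, 1 of which is Lmx1a itself, was 361 to 477 CPM in these cells. In all Lmx1a+ cells this sum was 173 to 3534 CPM over the 5 libraries, against 1.72 to 80.1 CPM in Lmx1a- cells. The part of roof plate cells in the Ntrk3 difference was not tested. Atoh1+ Tlx3- Eomes- Mapt- cells spanned 3.10 to 26.0 CPM of Ntrk3, with RL e13 replicate 1 at the top, so this class overlapped nearly all others.

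Sox2, a factor of neural progenitors that the rule did not use, gave the first test of the members. As a description, Sox2+ cells differed by -2.79 in Mapt, -2.42 in Eomes, -1.11 in Tlx3, -1.04 in Lmx1a and 0.25 in Atoh1 on the log2 scale. This split was thus not independent of the marker splits. Ntrk2 was lower in Sox2+ cells of every library, at 44.8 against 143 CPM in the e16 library, 1.52 against 25.8 and 3.21 against 40.5 CPM in the RL e14 replicates, and 3.92 against 12.4 and 3.12 against 15.5 CPM in the RL e13 replicates. Its log2 difference was -1.72 ± 0.23 (SE, limma with the library as a block, Benjamini-Hochberg adjusted p = 0.003, lower in 5 of 5 libraries). Leaving out any 1 library kept this call, including the e16 library, which had only 23 Sox2+ cells, while without the block the limma adjusted p was 0.14. Ntf3 stood at 14.9 against 29.9 CPM in the e16 library, 19.0 against 71.1 and 36.7 against 103 CPM in the RL e14 replicates, and 3.21 against 10.6 CPM in RL e13 replicate 2, and RL e13 replicate 1 held its single UMI in a Sox2+ cell. It was lower in 4 of 5 libraries, with a log2 difference of -0.95 ± 0.24 (SE, limma adjusted p = 0.024). The limma adjusted p for Ntf3 was 0.08 without RL e14 replicate 1, 0.099 without RL e14 replicate 2 and 0.07 without RL e13 replicate 2. Of 8543 genes, 28.7% were called, 13.2% as lower and 15.5% as higher in Sox2+ cells, so that a call at this split was common.

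Ntrk3 moved the other way. It stood at 13.4 against 6.32 CPM in Sox2+ and Sox2- cells of the e16 library, 5.24 against 2.83 and 5.38 against 2.69 CPM in the RL e14 replicates, and 20.7 against 5.69 and 8.5 against 3.35 CPM in the RL e13 replicates. Sox2+ cells were higher in 5 of 5 libraries, although the ranges overlapped. The e16 value rests on 3 Ntrk3 UMIs in 23 Sox2+ cells. In RL e13 replicate 1 Sox2+ cells held 265 of 271 Ntrk3 UMIs, so the Sox2- value there rests on few. The mean of Ntrk3 was under the 10 CPM filter. With the filter at 1 CPM, the log2 difference of 0.70 had a limma adjusted p of 0.019, which became 0.055 without RL e14 replicate 2 and 0.071 without RL e13 replicate 2. The receptors thus had opposite signs at the Sox2 split. The summed level of 8 neuronal markers was 379 to 3440 CPM in Sox2+ cells and 2657 to 11817 CPM in Sox2- cells, and that of 4 astroglial markers 136 to 199 and 0.621 to 51.0 CPM. The part of these cell types in the receptor differences was not tested.

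**Figure D4:**
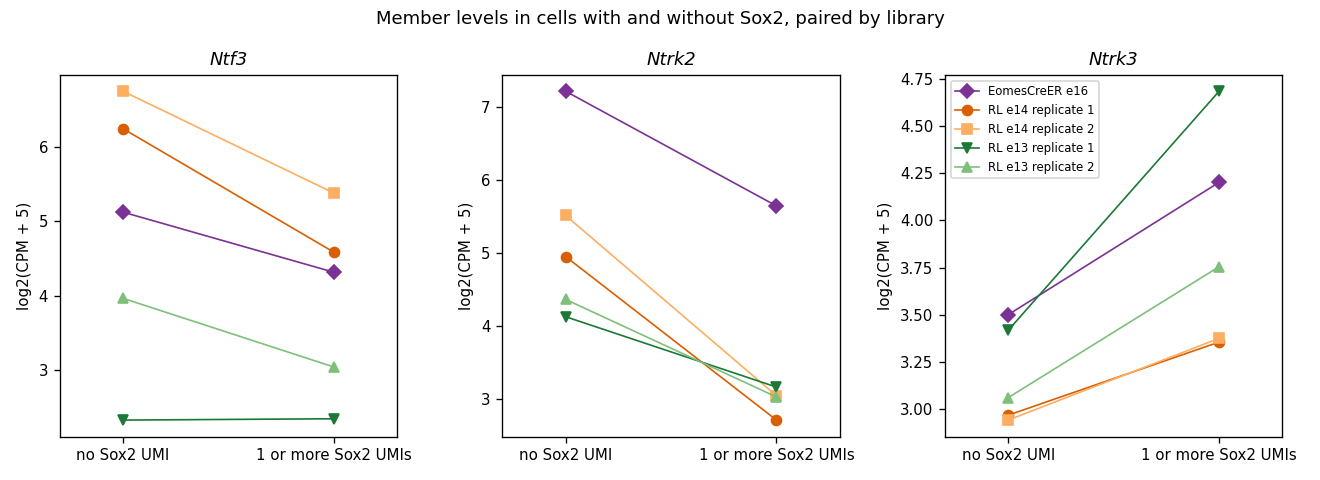
Levels of the members as log2(CPM + 5) in Sox2- and Sox2+ cells, with lines joining the values of 1 library. Ntrk2 falls in all 5 libraries (mean log2 difference -1.72), Ntf3 in 4 of 5 (-0.95), and Ntrk3 rises in all 5 (0.70).

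Other genes of the pathway were read at the Sox2 split from fixed lists. Of 22 tested adaptors and effectors, 5 were lower in Sox2+ cells and 1 was higher (median log2 difference -0.04, against 0.04 over all genes). This share is near the 28.7% of all genes called. Kidins220, a scaffold of Trk receptors, stood at 65.8 ± 8.94 against 123 ± 49.4 CPM (log2 -0.80, limma adjusted p = 0.0043) and Gab1, a docking protein, had a log2 difference of -0.78. The number of lower adaptors was 1 without RL e13 replicate 2, without RL e14 replicate 1 or without RL e14 replicate 2, and 3 without RL e13 replicate 1. The convertase Pcsk2, which cleaves prohormones in neurons, was the strongest listed gene, at 7.36 ± 9.87 against 60.6 ± 28.5 CPM (log2 -2.57, limma adjusted p = 0.00038). Of 10 tested surface partners of Trk receptors, 3 were higher (Slitrk6, Slitrk2 and Slitrk5, synaptic adhesion proteins) and 4 were lower. The number of lower partners was 2 without RL e14 replicate 1 or without RL e13 replicate 2, and the number of higher ones 2 without either RL e14 replicate. Lingo1, a co-receptor of p75 complexes, was lower (log2 -1.63, limma adjusted p = 0.00085).

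Genes induced by MAPK signalling, the cascade that Trk receptors activate, were mixed at this split, with 3 of 9 higher and 2 lower. Spry2, an inhibitor of the cascade, stood at 59.0 ± 19.0 against 20.4 ± 6.97 CPM (log2 1.33), while the phosphatase Dusp5 was lower (log2 -0.92, limma adjusted p = 0.0087). The number of higher genes ran from 1 (without either RL e13 replicate) to 5 (without the e16 library). Immediate early genes, which cell dissociation also induces, were higher for 6 of 8 tested (median 0.71, 5 to 6 with 1 library left out), with Fos at 552 ± 130 against 213 ± 54.0 CPM (log2 1.36, limma adjusted p = 0.00014).

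Cycling was read from Mki67, a marker of dividing cells, within Atoh1+ cells. Ntrk2 stood at 4.03 against 95.4 CPM in Mki67+ and Mki67- cells of the e16 library, 4.16 against 7.54 and 2.92 against 10.1 CPM in the RL e14 replicates, and 2.28 against 3.65 and 2.57 against 6.25 CPM in the RL e13 replicates. It was lower in Mki67+ cells of 5 of 5 libraries, by far most in the e16 library. The log2 difference was -1.14 (limma adjusted p = 0.086), and -0.55 without the e16 library, where the mean was under the filter. Ntf3 had a log2 difference of -0.23 (limma adjusted p = 0.11, lower in 4 of 5 libraries), which was -0.31 without RL e13 replicate 1 (limma adjusted p = 0.044). Neither member passed the test with all libraries, beside 28.9% of all genes called (13.6% higher and 15.3% lower). TMM scaling moved that split from 1141 higher and 1277 lower genes to 1404 and 950. Ntrk3 had a log2 difference of -0.11 and was under the filter.

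Among the listed genes, Kidins220 (log2 -0.83, limma adjusted p = 0.0047), Lingo1 (-0.75, limma adjusted p = 0.00087) and Dusp4 (-0.68, limma adjusted p = 0.0025) were lower in Mki67+ cells, and Rhoa, a GTPase downstream of p75, was higher (0.21, limma adjusted p = 0.007). These 4 calls held with each library left out in turn. Of 21 tested adaptors 3 were lower, of 10 surface partners 4 were lower (Islr2, Ptpro and Ptprs by size), and of 8 immediate early genes only Junb was lower, beside 15.3% of all genes called as lower. The shares of adaptors and immediate early genes are near that background. The number of lower adaptors was 5 without the e16 library and 1 without any of the other libraries, and that of lower surface partners 2 without RL e14 replicate 2. Junb and other immediate early genes gave 3 calls without the e16 library, 1 without RL e14 replicate 2 and 0 without each of the others. Of 9 MAPK response genes 2 were higher and 2 lower, with 0 higher without RL e14 replicate 2 or RL e13 replicate 2 and 1 higher without RL e14 replicate 1 or RL e13 replicate 1.

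Cells with the ligand were then compared with other cells among Atoh1+ Eomes- cells, in the 3 libraries with 20 or more on each side. These were RL e14 replicate 1 (135 Ntf3+ and 432 Ntf3- cells), RL e14 replicate 2 (133 and 240) and RL e13 replicate 2 (61 and 851). Ntrk2 stood at 6.72, 5.53 and 6.06 CPM in Ntf3+ cells against 2.77, 1.45 and 1.59 CPM in Ntf3- cells, and Ntrk3 at 0.269, 1.42 and 1.77 against 4.48, 3.94 and 5.89 CPM. Ntrk2 was higher and Ntrk3 lower beside Ntf3 in each of the 3 libraries, and both were under the 10 CPM filter. In all, 9.53% of genes were called, 4.90% as higher and 4.63% as lower.

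With the filter at 1 CPM, the log2 difference was 0.68 for Ntrk2 (limma adjusted p = 0.005) and -0.67 for Ntrk3 (limma adjusted p = 0.0062). The adjusted p for Ntrk2 was 0.059 without RL e14 replicate 2, and that for Ntrk3 was 0.099 without RL e14 replicate 1 (limma, Benjamini-Hochberg). Within cells that also held Tlx3, the differences were 0.39 (limma adjusted p = 0.73) and -0.28 (limma adjusted p = 0.83). Ntf3+ cells had less Sox2 than Ntf3- cells (log2 -1.67, limma adjusted p = 1.2e-08). As a description with no test, they differed by 3.44 in Tlx3 and by -0.36 in Atoh1 on the log2 scale. The summed neuronal markers were 2401 to 2953 CPM against 1201 to 1510 CPM, and the 4 astroglial markers 3.05 to 3.82 against 31.6 to 40.5 CPM. The part of these differences in the receptor values was not tested beyond the restriction to Tlx3+ cells.

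MAPK response genes were higher in Ntf3+ cells for 6 of 9 tested and lower for 1, with a median log2 difference of 0.38 against -0.01 over all genes. Dusp5, an ERK phosphatase, stood at 154 ± 45.3 against 41.0 ± 9.27 CPM (log2 1.77 ± 0.08 SE, limma adjusted p = 1.2e-08, higher in 3 of 3 libraries). The ETS factors Etv4 (32.3 ± 8.76 against 14.8 ± 3.01 CPM, log2 0.90, limma adjusted p = 0.00033) and Etv1 (log2 0.67, limma adjusted p = 0.0015) rose too. Spry2 was the exception, with a log2 difference of -0.74 (limma adjusted p = 0.002). Without RL e14 replicate 2 this call was lost for Spry2, and 5 of the listed genes were higher.

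Immediate early genes were lower in Ntf3+ cells for 8 of 8 tested (median -0.70, 6 to 8 with 1 library left out). Fos stood at 111 ± 42.6 against 337 ± 68.4 CPM (log2 -1.60 ± 0.16 SE, limma adjusted p = 1.9e-05), Fosb had a log2 difference of -1.44 and Btg2, an antiproliferative gene, of -0.82. Of 9 p75 partners 3 were higher, Lingo1 (136 ± 29.0 against 45.2 ± 6.18 CPM, log2 1.48, limma adjusted p = 8e-08), Bex1 and Ngfrap1, and 1 was higher without either RL e14 replicate. Of 11 tested surface partners 2 were higher (Ptprd and Slitrk5) and 2 were lower (Slitrk6 and Slitrk2). With 1 library left out, 0 or 1 of these was lower, and without RL e14 replicate 1 only 1 was higher. Of 21 adaptors, only Irs1 was called, as lower (log2 -0.37), and this call held in 1 of 3 fits with a library left out.

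Restricting both sides to Tlx3+ cells left 0.738% of genes called. Dusp5 was still higher (log2 1.07 ± 0.12 SE, limma adjusted p = 5.5e-05), and Fos (-1.15 ± 0.11, limma adjusted p = 9.7e-06) and Btg2 (-0.82 ± 0.12, limma adjusted p = 0.0013) were still lower. Etv4, Etv1 and Etv5 had log2 differences of 0.64, 0.63 and 0.58 that did not pass (limma adjusted p = 0.28, 0.18 and 0.075). In this setting 1 of 9 MAPK response genes passed. The restriction was chosen after the data were seen.

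**Figure D5:**
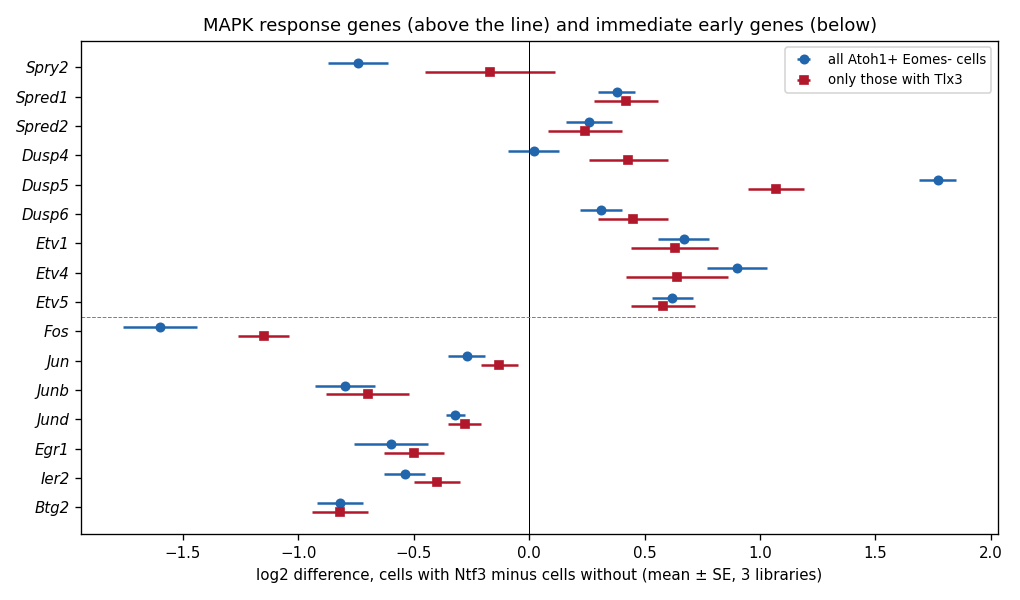
Log2 differences between Ntf3+ and Ntf3- cells (mean ± SE, 3 libraries) of MAPK response genes and immediate early genes, among all Atoh1+ Eomes- cells (blue circles) and only those with Tlx3 (red squares). Dusp5 lies farthest to the right in both sets (1.77 and 1.07) and Fos farthest to the left (-1.60 and -1.15).

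Receptor-bearing neurons were compared with other neurons by splitting Mapt+ cells by Ntrk2, in 4 libraries. Ntf3 stood at 34.5 against 14.2 CPM in Ntrk2+ and Ntrk2- cells of the e16 library, 30.2 against 46.5 and 74.6 against 65.4 CPM in the RL e14 replicates, and 4.35 against 6.23 CPM in RL e13 replicate 2. It was higher in 2 and lower in 2 libraries, with a log2 difference of 0.10 (limma adjusted p = 0.77), which was -0.21 without the e16 library (limma adjusted p = 0.32). Ntrk3 had a log2 difference of 0.12, at a level under the filter, and was higher in 3 of 4 libraries. No difference in the ligand or in TrkC was thus resolved between these neurons, while 29.7% of all genes were called (15.8% higher and 13.8% lower).

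Both tested convertases were higher in Ntrk2+ neurons, also with each library left out, but neither call held without the library block: Pcsk2 at 144 ± 32.7 against 52.6 ± 27.7 CPM (log2 1.45, limma adjusted p = 0.0067) and Pcsk5 at 42.0 ± 24.6 against 11.6 ± 4.24 CPM (log2 1.3, limma adjusted p = 0.0075). Of 22 adaptors, 5 were higher, with Kidins220 (log2 0.83, limma adjusted p = 0.006), Gab1 (0.78) and Pik3r1 (0.63) first by size. Of all genes 29.7% were called, 15.8% as higher, so the share of adaptors is near that background. The Pik3r1 call held in 1 of 4 fits with a library left out. The number of higher adaptors was 2 without RL e14 replicate 1, 3 without RL e14 replicate 2 or without RL e13 replicate 2, and 8 without the e16 library. Sorcs1, a sorting receptor, was higher (log2 0.95, limma adjusted p = 0.015), a call that held in 1 of 4 fits with a library left out. Of 9 MAPK response genes 4 were higher, led by Dusp5 (0.83, limma adjusted p = 0.0027), and Spry2 was lower (log2 -1.11, limma adjusted p = 0.006). The number of higher ones was 2 without RL e14 replicate 1 and 1 without RL e14 replicate 2, and without the e16 library 3 were lower. Of 8 surface partners, Islr2, Ptprs and Ptprd were higher and Slitrk5 was lower, with 1 higher without any of the RL libraries and 2 lower without the e16 library.

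Ntrk2+ cells had less Sox2 (log2 -1.93, limma adjusted p = 0.0058) and, as a description with no test, a log2 difference of 1.58 in Mapt. They had summed neuronal markers of 12747 to 16400 CPM against 4925 to 10846 CPM. Among cells with 5 or more Mapt UMIs, a restriction chosen after the data were seen, 3.18% of genes were called. Pcsk5, Dusp5 and Lingo1 were still higher there, while Pcsk2 had a log2 difference of 0.27 that did not pass (limma adjusted p = 0.21). The part of the neuronal marker levels in the other differences was not tested.

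Co-detection of ligand and receptor within a cell was described with no test. In the e16 library 225 of 306 Ntf3+ cells (73.5%) also held Ntrk2, which made 8.41% of all cells against 7.49% for unrelated detection within the library. In the RL e14 replicates 30 of 215 (14%) and 43 of 205 (21%) Ntf3+ cells held Ntrk2, and in RL e13 replicate 2 it was 10 of 84 (11.9%). In the RL e14 replicates this made 2.87% and 5.8% of all cells against 1.97% and 4.74% for unrelated detection. With each cell thinned to 5000 UMIs the first 3 shares were 50.2%, 3.91% and 7.46%, so they depended on depth. Co-detection then made 3.81%, 0.479% and 1.36% of all cells against 3.53%, 0.54% and 1.48% for unrelated detection, so that it was above that value only in the e16 library. At full depth and 1 UMI, Ntf3 and Ntrk3 met in 15, 4, 8 and 2 cells of the e16 library, the RL e14 replicates and RL e13 replicate 2. Unrelated detection gives 14.3, 13.6, 11.9 and 8.5 cells. The count was below that value in the 3 RL libraries and close to it in the e16 library. With thinned cells the counts were 4, 1, 4 and 0 against 5.31, 3.07, 2.73 and 1.58, so RL e14 replicate 2 was then above. At full depth, Ntrk2 and Ntrk3 met in 89, 9, 8, 14 and 9 cells of the 5 libraries.

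Other ligands and receptors of the family were read by level. Bdnf, the main ligand of TrkB, reached at most 8.65 CPM in any of 40 class profiles, and p75 (Ngfr) at most 18.7 CPM. Both maxima were in the Tlx3+ Atoh1- Eomes- Mapt+ cells of the e16 library, the class with the highest Ntf3. Sortilin (Sort1), a receptor for proneurotrophins, was present in every profile at 27.0 to 56.0 CPM. Its relatives Sorcs1, Sorcs2 and Sorcs3 reached 31.5, 32.1 and 22.5 CPM.

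The genes whose profiles were most like each member were ranked by Pearson correlation of log2(CPM + 5) over the 40 profiles, among 8545 genes. Profiles of 1 library share depth and preparation, and the ranks are a description. For Ntf3 they were Tlx3 (0.91), itself used for the classes, Fgf8 (0.90), Dusp5 (0.80), Cxxc5 (0.78) and Insm2 (0.77). For Ntrk2 they were Rims1 (0.95), and Eid1, Gabbr1, Cnih2 and Grin2b (0.94 each), of which Rims1, Gabbr1, Cnih2 and Grin2b encode synaptic proteins. For Ntrk3 they were Srgap3 and Mgat4a (0.83 each), and Cacna1g, Cdon and Rgs2 (0.82 each). Fgf8, a secreted growth factor, reached 62.8 CPM in Atoh1+ Tlx3+ Eomes- Mapt- cells of RL e14 replicate 2.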

How the data were processed

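Per the labels' protocols, cells were profiled with v3 and v3.1 3′ kits of the 10x Chromium system. The submitters' processing notes name Cell Ranger and mm10. The sources used here do not state the filters on cells or the treatment of doublets, and no doublet caller was run. The deposited table held natural log values, which back-transformed to a sum of 10000 in every cell. All 29540669 values above 0 gave whole UMI counts within 0.01 of a count (100%). Libraries were mapped by title, and the 1 batch name that matched no title was taken as the e16 library because it was the one left.

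Back-transformed values were averaged over the cells of a group and library (20 or more cells) and scaled to CPM. Tests used limma 3.58.1 (trend, R 4.3.3) on log2(CPM + 5), which understates changes of low genes, with the library as a block except between ages, over genes averaging at least 10 CPM, with Benjamini-Hochberg adjustment over all of them and 0.05 as the threshold. A planned count model was not used because the unit is a natural log. The members and lists were chosen with earlier results of these data known. Named genes are the members, the listed ligands and receptors (some are not reported here), up to 3 called genes per direction of each other list, the 5 most similar profiles, and the marker genes. In simulated data with 200 changed genes (dispersion 0.03), a log2 change of 1 was recovered for 90.2% of genes at the Sox2 split, 85.4% at the Ntf3 split and 63.9% between ages. Every simulated library had the same mean for an unchanged gene, so differences in cell composition between libraries were left out. These shares therefore do not carry over to the real fits. Between ages 0 genes were called there, and the SE of the Ntf3 difference was 0.51. Alternatives changed the pseudocount, filter, detection threshold, depth, scaling and block, or left out 1 library or the 5% of cells with most UMIs.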

Additional observations from a re-analysis of the deposited data

Results flagged for a closer look

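Members that moved one way in every library of a group and the other way in every library of another group are listed here. The differences between groups were not tested, and e16 is 1 library. At the Eomes split, Ntf3 had log2 differences of -1.57 at e16, 0.35 and 0.16 at e14, and -0.02 and -0.32 at e13, so that e16 and e14 differed by -1.83 and e14 and e13 by 0.43. RL e13 replicate 1 held 1 Ntf3 UMI in all, so its values of Ntf3 here (-0.02, and 0.12 at the Mapt split) rest on that UMI. Ntrk3 had 0.31 at e16, -0.23 and -0.20 at e14, and -0.88 and -0.47 at e13, so that e16 differed from e14 by 0.53 and from e13 by 0.99. At the Mapt split, Ntf3 had -0.89 at e16 against 0.12 and 0.07 at e13 (a difference of -0.98) and Ntrk3 had 0.52 against -0.32 and -0.28 (0.82). Of 173 Ntrk3 UMIs in the e16 library, 165 lay in Eomes+ and 168 in Mapt+ cells, so its negative sides rest on few. In RL e13 replicate 1 only 4 of 271 Ntrk3 UMIs lay in Eomes+ cells. At the split of Mapt+ cells by Ntrk2, Ntf3 had 1.04 at e16 against -0.26 in RL e13 replicate 2 (a difference of 1.3). Ntrk3 there had 0.16 at e16 and 0.50 and 0.12 at e14 against -0.28 in RL e13 replicate 2, which gives differences of 0.44 and 0.59.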

How the results depend on the processing

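Of 1651 values recomputed, 406 belonged to the members' main results and 361 of these kept their direction and call or stayed within their spread. With a pseudocount of 1, the log2 difference of Ntrk3 was -1.33 at the Tlx3 split, 0.85 at the Lmx1a split, 1.06 at the Sox2 split and -1.48 at the Ntf3 split, and that of Ntrk2 was 1.3 at the Ntf3 split and 0.65 between ages. With splits made on cells thinned to 5000 UMIs, Ntf3 was -0.03 at the Atoh1 split and -0.51 at the Ntrk2 split (reversed), Ntrk2 was -1.32 at the Sox2 split (under the filter) and 0.56 at the Ntf3 split, Ntrk3 was -0.46 at the Ntf3 split, and Ntrk2 in Eomes+ Lmx1a+ Mapt+ cells stood at 160 CPM. Thinning left 50.2%, 3.91% and 7.46% of Ntf3+ cells with Ntrk2 in the e16 and RL e14 libraries, and detection at 2 UMIs 55.6%, 4.46% and 10.2%. Without the library block, the Sox2 differences of Ntf3 (-0.95, limma adjusted p = 0.51) and Ntrk2 (-1.72, limma adjusted p = 0.14) did not pass. Over genes of 1 CPM or more, Ntrk3 at the Sox2 split (0.70), and Ntrk2 (0.68) and Ntrk3 (-0.67) at the Ntf3 split, passed, with ranges of 0.55 to 0.77, 0.65 to 0.73 and -0.77 to -0.66 in the fits without 1 library that still passed. Only Tlx3+ cells gave 0.39 and -0.28, neither of which passed.

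Leaving out 1 library gave Ntf3 a range of -1.19 to -0.77 at the Sox2 split (its call was lost in 3 of 5 fits), -0.31 to -0.17 at the Mki67 split, -0.21 (reversed) to 0.32 at the Ntrk2 split and 2.45 to 3.74 between ages, and Ntrk3 -1.87 to -0.35 between ages. Between ages Ntrk2 had 0.13 with detection at 2 UMIs, 0.20 in cells without Tlx3 and 0.18 in cells without Mapt and Eomes. Among listed genes, 88 were called and 12 of these calls held under every alternative in which the gene was tested. Irs1 reversed to 0.01 in Tlx3+ cells, and Dusp4 (-0.03) and Ptprs (-0.12) reversed among cells with 5 or more Mapt UMIs. The cause was not tested. The labels do not say whether replicate numbers of the RL libraries mark a shared animal or day. With a replicate block between ages, the difference of Ntf3 was 3.10 (limma adjusted p = 0.35).

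TMM scaling moved the genes called higher and lower from 1141 and 1277 to 1404 and 950 at the Mki67 split, and the median of all genes between ages from -0.077 to 0.035. With 1 library left out, 1161 to 3101 genes were called at the Sox2 split (2454 with all), 1320 to 3597 at the Mki67 split (2418), 484 to 1023 at the Ntf3 split (780) and 660 to 3464 at the Ntrk2 split (2492), and other alternatives gave 678 to 3299, 532 to 2714, 60 to 1010 and 1 to 2931 genes. At the Tlx3 split 274 genes were called, with a range of 1 to 1439 over all alternatives. Levels under 10 CPM rest on few UMIs, above all for Ntrk3.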
